A study of Drosophila melanogaster with 12 samples.

Results

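Aminoacyl-tRNA synthetases are the enzymes that attach each amino acid to its tRNA. Their genes were described here in the wing imaginal discs of Drosophila larvae, the epithelial sacs from which the adult wing grows. The members were the genes whose symbol is an amino acid code (or GluPro, alpha-Phe or beta-Phe) followed by RS, with or without the ending -m, and 35 of the 17869 gene rows of the expression table carried such a symbol. Of these, 20 encode cytosolic enzymes and 15, whose symbols end in -m, encode enzymes that work in the mitochondrion. All 35 had a mean of at least 10 normalized counts and entered the tests.

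Total RNA was sequenced from 12 samples of 150 pooled discs each, taken on day 7 from larvae of the third instar. All 3 groups of 4 carried the driver nub-Gal4, which is active in the wing pouch, and a UAS-mRFP reporter, so that the discs also held tissue in which nothing was driven. The first group (nub>mRFP; ecd-RNAi, Xrp1-RNAi) expressed RNAi against both ecd and Xrp1, the second (nub>mRFP; ecd-RNAi) expressed RNAi against ecd alone, and the control group (nub>mRFP) expressed the reporter only. The product of ecd takes part in pre-mRNA splicing with the spliceosome component Prp8, and Xrp1 is a bZIP transcription factor known from stress responses in imaginal discs. Discs with Xrp1 RNAi but no ecd RNAi were not analysed here. The labels call the 4 samples of a group biological replicates.

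The cytosolic enzymes supply charged tRNA to ribosomes of the cytosol, while the -m enzymes are made from nuclear genes, imported, and supply the ribosomes of the mitochondrion. In animals several cytosolic synthetases sit in a multisynthetase complex held together by the scaffold proteins AIMP1, AIMP2 and AIMP3. When charging fails, uncharged tRNA activates the kinase Gcn2, which phosphorylates eIF2alpha and favours translation of the transcription factor ATF4, called crc in flies. In mammalian cells ATF4 raises the transcription of many cytosolic synthetase genes.

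Values are the authors' normalized counts, given per library in the order of replicates 1 to 4, and each change is a log2 fold change with its SE, computed on log2(value + 1), a scale on which the change of a gene with few counts comes out too small. Adjusted p is from limma over 10179 genes, two-sided, with Benjamini-Hochberg adjustment, and a gene was called at an adjusted p under 0.05. Shares of all tested genes are at that threshold. They were not computed at an unadjusted p under 0.05, so counts of genes at that looser threshold stand without one. The normalized counts of all rows summed to 26500844 to 35397850 per library, but the depth in reads is not known, so the precision of a value is that of the spread between 4 libraries. Xrp1 averaged 5084 ± 772 normalized counts with ecd plus Xrp1 RNAi, 20880 ± 1750 with ecd RNAi and 4812 ± 252 in control (SD, n = 4 each). The ecd transcript was not lower with ecd RNAi, at 1982, 1687, 1423 and 1521, against 1654, 1494, 1421 and 1420 in control (log2 fold change 0.13 ± 0.09, adjusted p = 0.251). The group names for ecd RNAi, and every direction drawn from them below, therefore rest on the labels.

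Markers of other cell types differed between libraries. The 7 fat body markers, none at 0 in any library, summed to 1799 to 2959 with ecd plus Xrp1 RNAi. Their sums were 2761, 1218, 24520 and 28770 with ecd RNAi and 1315, 6647, 76590 and 32720 in control, so replicates 3 and 4 of those groups are named the 4 fat-body-rich libraries below. The 6 wing disc markers, also never at 0, summed to 38660 to 44260 with ecd plus Xrp1 RNAi, 29640 to 36460 with ecd RNAi and 37560 to 43680 in control, and 3 of them (nub, ap and Bx) fell with ecd RNAi. Markers of adult muscle precursors summed to 1843 to 1972 with ecd plus Xrp1 RNAi, 975.4 to 1568 with ecd RNAi and 1443 to 1850 in control, and those of trachea to 1970 to 2535 with ecd plus Xrp1 RNAi, 1285 to 1771 with ecd RNAi and 2145 to 2317 in control. Hemocyte markers summed to 533.7 to 660 with ecd plus Xrp1 RNAi, 778.8 to 943.1 with ecd RNAi and 567 to 1019 in control, with Hml higher on average with ecd RNAi than in control (768.5 and 599) and srp called lower (-0.62, adjusted p = 0.048). Neuronal markers summed to 435.2 to 594.4 with ecd plus Xrp1 RNAi, 531.4 to 969.5 with ecd RNAi and 372.5 to 701.1 in control. None of these markers was at 0 in any library. Rows that are not genes, such as transposable elements, took 0.546% to 0.645% of the signal with ecd plus Xrp1 RNAi, 5.65% to 7.40% with ecd RNAi and 0.452% to 0.515% in control. The part of these differences in the results below was not tested, and in bulk tissue fewer cells of a type and less RNA per cell cannot be told apart.

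In control discs the levels of the cytosolic enzymes per kb of the longest transcript lay between 757 normalized counts per kb for CysRS and 3015 for AlaRS, with a median of 1319. The mitochondrial enzymes lay between 86.35 normalized counts per kb for GluRS-m and 616.8 for AspRS-m, with a median of 216.6, so every cytosolic member stood above every mitochondrial one on this scale. AlaRS (FBgn0027094, chromosome 2L, 8378262 to 8381764, BDGP6, minus strand) averaged 3476 ± 259 normalized counts per kb with ecd plus Xrp1 RNAi, 3947 ± 500 with ecd RNAi and 3015 ± 235 in control (SD, n = 4 each). AspRS-m (FBgn0051739, chromosome 2L, 16827078 to 16832093, plus strand) had 2727, 2837, 2787 and 2958 normalized counts with ecd plus Xrp1 RNAi, 2715, 2835, 2423 and 2576 with ecd RNAi, and 2667, 2589, 2426 and 2564 in control. Its groups overlapped with ecd RNAi against control, no comparison called it, and an exon of CG13282 lies over it on the other strand.

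In 19 of the 20 cytosolic members, both replicates 1 and 2 stood above both replicates 3 and 4 with ecd RNAi. The same count held in control, while with ecd plus Xrp1 RNAi it was 12 of 20. Among the 15 mitochondrial members the counts were 3 with ecd plus Xrp1 RNAi, 9 with ecd RNAi and 8 in control. Replicates 3 and 4 of ecd RNAi and control are the fat-body-rich ones. The share of all tested genes with this split was not computed, so the counts cannot be read as particular to the members. The median coefficient of variation of the cytosolic members was 4.86% with ecd plus Xrp1 RNAi, 11.4% with ecd RNAi and 6.52% in control, and that of the mitochondrial members 5.05% with ecd plus Xrp1 RNAi, 6.85% with ecd RNAi and 6.64% in control. Shares were taken of the sum of gene rows outside ribosomal RNA, which leaves out the rows that are not genes. Those rows took more of the signal with ecd RNAi, so adding them would lower the shares most in that group. Of the sum of gene rows, the cytosolic members together took 0.359% to 0.375% with ecd plus Xrp1 RNAi. They took 0.307% to 0.361% with ecd RNAi and 0.357% to 0.380% in control. The ecd RNAi and control libraries overlapped on this sum, and overlap with the other rows added was not computed. The mitochondrial members took 0.0420% to 0.0446% with ecd plus Xrp1 RNAi, 0.0388% to 0.0433% with ecd RNAi and 0.0410% to 0.0421% in control.

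How the synthetase genes differed between ecd RNAi and control was examined first. Of the 20 cytosolic members, 8 fell with ecd RNAi (beta-PheRS, AsnRS, ValRS, ArgRS, SerRS, MetRS, alpha-PheRS and IleRS), AlaRS rose, and 11 were not called. Over all tested genes 25.4% were called lower and 22.4% higher. The median log2 fold change of the cytosolic members was -0.13 with a range of -0.82 to 0.38, beside -0.04 over all tested genes. Of the 15 mitochondrial members LeuRS-m rose and 0 fell (0 also at an unadjusted p under 0.05 in limma and 0 in the authors' deposited table), with a median of 0.01 and a range of -0.15 to 0.52. The largest fall was that of beta-PheRS and the largest rise that of LeuRS-m.

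**Figure D1:**
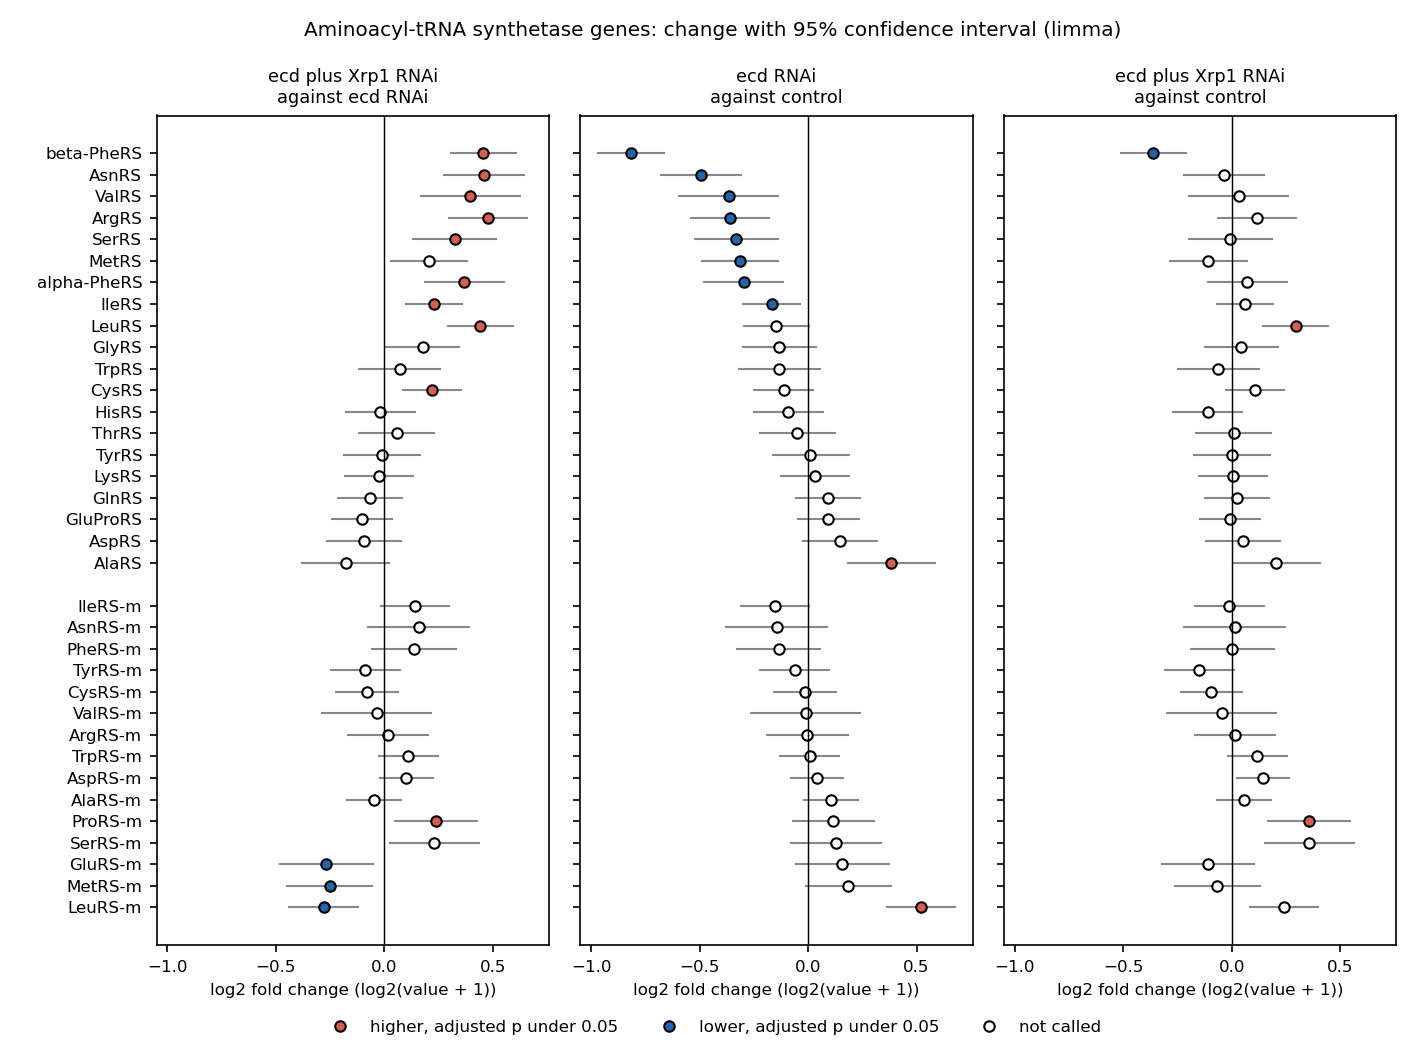
Log2 fold change of each of the 35 members with its 95% confidence interval from limma in the 3 comparisons, on the horizontal axis in log2 units. Cytosolic members are above and mitochondrial members below, each ordered by the change with ecd RNAi against control. Filled points passed an adjusted p of 0.05, and with ecd RNAi against control 8 of the 20 cytosolic points are blue (lower), from beta-PheRS at -0.82 to IleRS at -0.17.

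Of the 12 cytosolic genes whose enzymes are outside the multisynthetase complex, 5 fell and AlaRS rose. beta-PheRS (FBgn0039175, chromosome 3R, 24250460 to 24252679, minus strand), the beta subunit of the cytosolic enzyme for phenylalanine, had 1183, 1322, 1101 and 1065 normalized counts with ecd RNAi, against 2177, 2055, 1941 and 2034 in control. The groups were far apart, and the mean fell by 43.1% (log2 fold change -0.82 ± 0.07, adjusted p = 9.66e-07). AsnRS (FBgn0086443, chromosome 2L, 19129469 to 19131954, minus strand), which charges tRNA with asparagine, had 4009.5, 3870.5, 3103 and 3463 with ecd RNAi, against 5257, 5473, 4786 and 4776 in control. Again no ecd RNAi library reached a control one, and the change was -0.50 ± 0.09 (adjusted p = 0.000337). ValRS (FBgn0027079, chromosome 2R, 13198850 to 13202709, plus strand), the enzyme for valine, had 3326, 3236, 2440.5 and 2424 with ecd RNAi, against 3878, 3910, 3306 and 3508 in control. ecd RNAi replicate 1 lay just above control replicate 3, and the change was -0.37 ± 0.10 (adjusted p = 0.0108). SerRS, for serine, fell by 0.33 ± 0.09 on the log2 scale (adjusted p = 0.00728) with no overlap of the groups, and an exon of CG17260 lies over it on the other strand. alpha-PheRS (FBgn0030007, chromosome X, 8143904 to 8145602, minus strand), the other subunit of the phenylalanine enzyme, had 2113, 2037, 1726 and 1688 with ecd RNAi, against 2460, 2512, 2186 and 2113 in control. Its highest ecd RNAi library lay level with its lowest control, and the change was -0.30 ± 0.08 (adjusted p = 0.0102).

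Of the 8 genes whose enzymes belong to the animal multisynthetase complex, ArgRS, MetRS and IleRS fell and AspRS, GlnRS, GluProRS, LeuRS and LysRS were not called. ArgRS (FBgn0027093, chromosome X, 15841769 to 15844145, minus strand), for arginine, had 2066, 2344, 1801 and 1877 normalized counts with ecd RNAi, against 2796, 2637, 2433 and 2486 in control. The groups did not overlap, and the change was -0.36 ± 0.08 (adjusted p = 0.00283). MetRS, for methionine, changed by -0.32 ± 0.08 (adjusted p = 0.00578). IleRS, for isoleucine, passed with a change of -0.17 ± 0.06 (adjusted p = 0.0345), and this call rested on single libraries. Without ecd RNAi replicate 3 or 4 its change was -0.12 or -0.16 (adjusted p = 0.0899 or 0.0728), and without control replicate 1, 2 or 4 it was -0.15, -0.16 or -0.18 (adjusted p = 0.0924, 0.0825 or 0.0503). Without the 4 fat-body-rich libraries it was -0.12 (adjusted p = 0.139). GluProRS (FBgn0005674, chromosome 3R, 23952136 to 23958391, minus strand), a single protein that charges both glutamate and proline tRNA, had 7870, 8132, 7784 and 7035 with ecd RNAi, against 7513, 7566, 6681 and 7107 in control. These overlapped, with a change of 0.09 ± 0.07 (adjusted p = 0.259, 95% interval -0.05 to 0.23), and an antisense RNA gene lies over its exons.

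AlaRS, the enzyme for alanine, went the other way. It had 13825, 14221, 11118 and 11423 normalized counts with ecd RNAi, against 10419, 10184, 8914 and 9116 in control. Every ecd RNAi library lay above every control one, and the mean was 30.9% higher (log2 fold change 0.38 ± 0.09, adjusted p = 0.0039). Among the mitochondrial enzymes LeuRS-m (FBgn0027085, chromosome 3L, 4825853 to 4829038, plus strand), for leucine, had 891, 900, 800 and 727 with ecd RNAi, against 592, 594, 556 and 562 in control. Its groups were well apart, and it rose by 0.52 ± 0.07 (adjusted p = 6.35e-05). The cytosolic enzyme for leucine, LeuRS, was not called, at -0.15 ± 0.07 (adjusted p = 0.099).

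The values of ecd RNAi and control did not overlap for 1 cytosolic member that was higher (AlaRS) and 5 that were lower, and for 2 mitochondrial members that were higher (LeuRS-m and GluRS-m). Over all tested genes this held for 21.4% as higher and 23.3% as lower. The authors' deposited table lists 1 cytosolic member higher and 8 lower at an adjusted p under 0.05, and 1 mitochondrial member higher, where 39.6% of its genes with an adjusted p were called in either direction. Without the 4 fat-body-rich libraries 7 cytosolic members fell and 2 rose, where 22.2% of all tested genes were called lower and 20.2% higher. AspRS, whose exons those of Nmda1 overlap on the other strand, was then called higher (0.22, adjusted p = 0.0314), as it was without ecd RNAi replicate 3 (0.21, adjusted p = 0.0316), and with the replicate number as a block in the fit to all libraries (0.15, adjusted p = 0.0457), though not with a block and only these 8 libraries. In the fit with the block and these 8 libraries GlyRS was called lower (-0.13, adjusted p = 0.0303), and without ecd RNAi replicate 2 IleRS-m was (-0.20, adjusted p = 0.0476). Scaled to the sum of genes without ribosomal RNA, 13 cytosolic members fell, where 31.2% of all tested genes were called lower and 19.3% higher. The median of all tested genes moved to -0.10. Ribosomal RNA took 20.2% to 28.7% of the signal with ecd plus Xrp1 RNAi. It took 20.3% to 28.7% with ecd RNAi and 16.6% to 19.8% in control, and its part in this move was not tested. Under quantile normalization 8 cytosolic members fell and 4 rose, AspRS, GlnRS and GluProRS being added to AlaRS, and 3 mitochondrial members fell (AsnRS-m, IleRS-m and PheRS-m). In that run 29.6% of all tested genes were called lower and 23.2% higher.

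**Figure D2:**
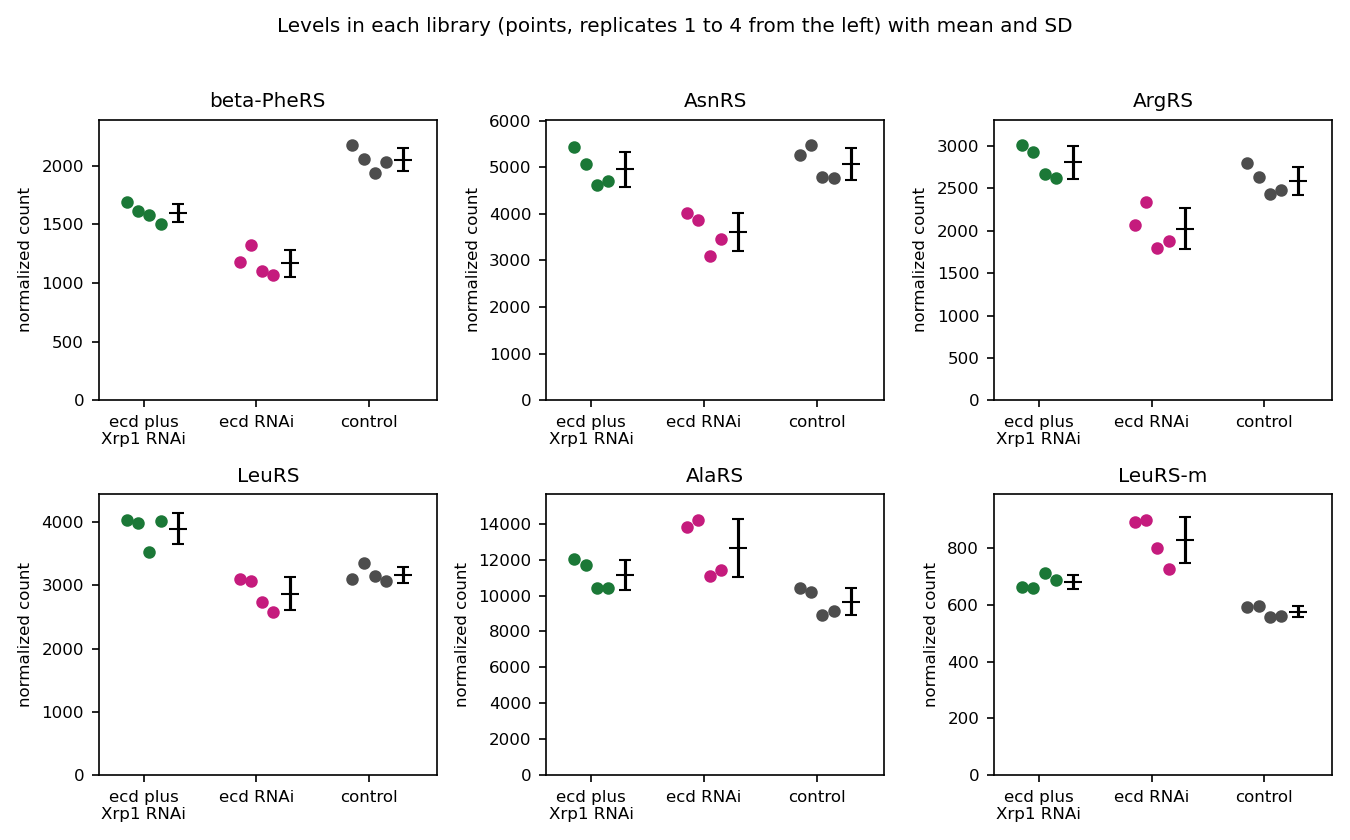
Normalized counts of 6 members in the 12 libraries, with the groups in the order ecd plus Xrp1 RNAi, ecd RNAi and control, and vertical axes from 0. Points are libraries and the bar beside them is the mean with SD of 4. beta-PheRS lies between 1065 and 1322 with ecd RNAi and between 1507 and 1694 with ecd plus Xrp1 RNAi, both below the control libraries.

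Whether the synthetase genes differed once Xrp1 RNAi was added was examined by comparing ecd plus Xrp1 RNAi with ecd RNAi. Of the 20 cytosolic members, 9 rose (ArgRS, AsnRS, beta-PheRS, LeuRS, ValRS, alpha-PheRS, SerRS, IleRS and CysRS) and 0 fell, where 26.7% of all tested genes were called higher and 20.6% lower. At an unadjusted p under 0.05 limma put 11 higher and 0 lower, a looser threshold at which the share of all tested genes was not computed. The authors' deposited table also lists 9 higher and 0 lower. Under quantile normalization 9 rose and 5 fell (AlaRS, AspRS, GlnRS, GluProRS and LysRS), where 29.6% of all tested genes were called higher and 20.1% lower. The median change of the cytosolic members was 0.19, with a range of -0.18 to 0.48, beside -0.01 over all tested genes. Of the 15 mitochondrial members, ProRS-m rose and LeuRS-m, GluRS-m and MetRS-m fell, with a median of 0.02 and a range of -0.28 to 0.24. This comparison and the one with control share the ecd RNAi libraries, so their values are set side by side and no agreement between them is counted.

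ArgRS had 3011, 2935, 2665 and 2625 normalized counts with ecd plus Xrp1 RNAi, against the 1801 to 2344 with ecd RNAi given above. No library of the pair of groups crossed, and the change was 0.48 ± 0.08 (adjusted p = 0.000404), beside -0.36 with ecd RNAi against control. AsnRS had 5423, 5064, 4615 and 4702 with ecd plus Xrp1 RNAi, and every one lay above the ecd RNAi libraries at 3103 to 4009.5 (0.46 ± 0.09, adjusted p = 0.000651), beside -0.50 with ecd RNAi against control. beta-PheRS had 1694, 1612, 1578 and 1507 with ecd plus Xrp1 RNAi and rose by 0.46 ± 0.07 over ecd RNAi (adjusted p = 0.000155), beside -0.82 with ecd RNAi against control. All of its ecd plus Xrp1 RNAi libraries stayed under its lowest control library.

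LeuRS (FBgn0284253, chromosome 2L, 3510328 to 3514656, minus strand) had 4037, 3989, 3525 and 4021 normalized counts with ecd plus Xrp1 RNAi, against 3099.5, 3067, 2736 and 2576 with ecd RNAi. The groups were apart, and the change was 0.44 ± 0.07 (adjusted p = 0.00018), beside -0.15 with ecd RNAi against control, which was not called. ValRS rose by 0.40 ± 0.10, alpha-PheRS by 0.37 ± 0.08, SerRS by 0.32 ± 0.09, IleRS by 0.23 ± 0.06 and CysRS, for cysteine, by 0.22 ± 0.06 (an exon of sotv lies over it on the other strand), with adjusted p between 0.00281 and 0.0104. MetRS, at 0.21 ± 0.08 (adjusted p = 0.0506), was not called, although the groups did not overlap. It was called without ecd RNAi replicate 1 or 2 (0.26 each, adjusted p = 0.0173 and 0.0237) and without control replicate 3 (0.21, adjusted p = 0.048). AlaRS, at -0.18 ± 0.09 (adjusted p = 0.133), was not called either.

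Without the 4 fat-body-rich libraries, 6 cytosolic members rose and AlaRS and AspRS fell with ecd plus Xrp1 RNAi over ecd RNAi (-0.34 and -0.24, adjusted p = 0.00637 and 0.013). Of all tested genes 21.8% were called higher and 20.9% lower in that run. SerRS, IleRS and CysRS were not called there, at 0.18, 0.14 and 0.12 (adjusted p = 0.0631, 0.06 and 0.0628). GlyRS was called higher without ecd RNAi replicate 2 (0.22, adjusted p = 0.035). The groups did not overlap for 10 cytosolic members, all higher, where 24.4% of all tested genes did not overlap as higher and 19.3% as lower. The authors' deposited values put 1 mitochondrial member higher and 2 lower in that table, where 42.2% of its genes were called in either direction.

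Among the mitochondrial enzymes LeuRS-m had 663, 661, 712 and 686 normalized counts with ecd plus Xrp1 RNAi, all below the 727 to 900 of ecd RNAi (-0.28 ± 0.07, adjusted p = 0.00641), beside 0.52 with ecd RNAi against control. GluRS-m (FBgn0036629, chromosome 3L, 16415292 to 16417177, minus strand), for glutamate, had 137, 141, 133 and 132 with ecd plus Xrp1 RNAi, against 162, 166, 167 and 158 with ecd RNAi. The groups did not overlap (-0.27 ± 0.10, adjusted p = 0.0403), but the call was lost in 10 of the 12 fits that each left out 1 library, at -0.25 to -0.29 and adjusted p of 0.0501 to 0.0857, among them every fit without a library of these 2 groups and those without control replicate 2 or 4. Under quantile normalization its sign turned, to 0.08 (adjusted p = 0.576). An exon of Serinc lies over GluRS-m on the other strand, and TyrRS, which was not called in any comparison, lies just upstream on the same strand, at 16417349 to 16419302.

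MetRS-m (FBgn0027083, chromosome 3R, 14249043 to 14259991, minus strand), for methionine, had 427, 434, 488 and 545 normalized counts with ecd plus Xrp1 RNAi, against 593, 539, 595 and 521 with ecd RNAi. The highest of the first group lay above the lowest of ecd RNAi, and the change was -0.25 ± 0.09 (adjusted p = 0.0356). It was not called without ecd plus Xrp1 RNAi replicate 1, 2 or 3 (-0.21, -0.21 and -0.27, adjusted p = 0.106, 0.102 and 0.0512) or without ecd RNAi replicate 1 or 3 (-0.23 and -0.22, adjusted p = 0.0832 and 0.0844). ProRS-m (FBgn0027082, chromosome 3L, 2650161 to 2651850, minus strand), for proline, had 518, 482, 497 and 460.4 with ecd plus Xrp1 RNAi, against 459, 432, 379.7 and 390 with ecd RNAi. The groups only just did not overlap (0.24 ± 0.09, adjusted p = 0.0373), and an exon of CG1246 lies over the gene on the other strand. Its call was lost without ecd plus Xrp1 RNAi replicate 1, 2 or 3 (0.21, 0.25 and 0.23, adjusted p = 0.0999, 0.0649 and 0.0799) and without ecd RNAi replicate 3 or 4 (0.20 and 0.21, adjusted p = 0.0961 and 0.0933). Without the 4 fat-body-rich libraries the changes of GluRS-m, MetRS-m and ProRS-m were -0.28, -0.26 and 0.13 (adjusted p = 0.0727, 0.104 and 0.202). SerRS-m, which an exon of Nagk overlaps on the other strand, was at 0.23 ± 0.10 (adjusted p = 0.0626) and was called higher without ecd plus Xrp1 RNAi replicate 4 or ecd RNAi replicate 1 (0.27 and 0.29, adjusted p = 0.0493 and 0.0281).

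Few members differed between ecd plus Xrp1 RNAi and control. In the cytosolic set LeuRS rose and beta-PheRS fell, in the mitochondrial set ProRS-m rose, and the other 18 and 14 were not called, where 2.29% of all tested genes were called higher and 2.1% lower, 233 and 214 genes. Scaled to the sum without ribosomal RNA, this split of all genes was 207 higher and 372 lower. beta-PheRS had 1507 to 1694 normalized counts with ecd plus Xrp1 RNAi, against 1941 to 2177 in control, a change of -0.36 ± 0.07 (adjusted p = 0.0108) that was called in every alternative run. LeuRS had 3525 to 4037 with ecd plus Xrp1 RNAi, against 3108, 3353, 3154 and 3063 in control (0.30 ± 0.07, adjusted p = 0.0309). Its groups did not overlap, but the call was lost without ecd plus Xrp1 RNAi replicate 1, 2 or 4 (0.28 each, adjusted p = 0.0813, 0.0856 and 0.0646) and without control replicate 1, 3 or 4 (0.29, 0.29 and 0.28, adjusted p = 0.0734, 0.0728 and 0.0909). ProRS-m had 460.4 to 518 with ecd plus Xrp1 RNAi, against 423, 392, 374 and 342 in control (0.36 ± 0.09, adjusted p = 0.0377). That call was lost without ecd plus Xrp1 RNAi replicate 1, 2 or 3 (0.33, 0.36 and 0.35, adjusted p = 0.0964, 0.0828 and 0.105) and without control replicate 2, 3 or 4 (0.37, 0.35 and 0.30, adjusted p = 0.0793, 0.0888 and 0.114). Without the 4 fat-body-rich libraries LeuRS changed by 0.27 and ProRS-m by 0.26 (adjusted p = 0.0666 and 0.107). SerRS-m, at 0.36 ± 0.10 (adjusted p = 0.0527), was called higher without ecd RNAi replicate 1 or 4 or control replicate 1 (0.36, 0.36 and 0.42, adjusted p = 0.0458, 0.0228 and 0.0446), and LeuRS-m, at 0.24 ± 0.07 (adjusted p = 0.0877), without ecd RNAi replicate 4 (0.24, adjusted p = 0.0492). The authors' deposited table lists 1 cytosolic member higher and 1 lower and 3 mitochondrial members higher, where 9.52% of its genes were called in either direction.

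The 2 subunits of the cytosolic phenylalanine enzyme, which assemble in equal numbers, were set against each other per kb of transcript. The ratio of alpha-PheRS to beta-PheRS was 1.77, 1.74, 1.73 and 1.78 with ecd plus Xrp1 RNAi, 2.06, 1.78, 1.81 and 1.83 with ecd RNAi, and 1.30, 1.41, 1.30 and 1.20 in control. Both RNAi groups lay wholly above control. A test of this ratio was not among the planned ones. It reuses the libraries in which beta-PheRS was called lower against control, so it adds no separate support. The exact permutation test over samples, two-sided, gave p = 0.0286 for ecd plus Xrp1 RNAi against control and likewise for ecd RNAi against control, the smallest p that 4 libraries a group allow, and 0.0429 after adjustment over the 3 comparisons. That test ignores replicate numbers, which were taken to pair ecd RNAi with control. Those numbers are from the sample titles, and the sample descriptions give replicate 1 of these groups different numbers. Exchanging only within those 4 pairs, an alternative added after the values were seen, the ratio was higher with ecd RNAi in 4 of 4 pairs (log2 difference 0.52, exact permutation p = 0.125), which is the smallest p that 4 pairs allow. The log2 difference was -0.09 with ecd plus Xrp1 RNAi over ecd RNAi (exact permutation p = 0.0571, adjusted 0.0571). A ratio alone shows unequal change of the 2 transcripts and not which of them changed. In limma beta-PheRS changed by -0.82 and alpha-PheRS by -0.30 with ecd RNAi against control, and both were called. With ecd plus Xrp1 RNAi against control beta-PheRS changed by -0.36 (adjusted p = 0.0108). alpha-PheRS was not called there, at 0.07 (adjusted p = 0.646).

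Where an amino acid has a cytosolic and a mitochondrial enzyme, the ratio of their levels per kb was taken in 16 pairs of genes, with GluProRS paired with both GluRS-m and ProRS-m and both subunits paired with PheRS-m. In control the ratio was 3.00 to 15.6 with a median of 5.80. The mean ratio was lower with ecd RNAi than in control in 13 of the 16 pairs, and higher with ecd plus Xrp1 RNAi than with ecd RNAi in 12 of 16. The pair for leucine stood at 4.4 ± 0.41 with ecd plus Xrp1 RNAi, 2.66 ± 0.05 with ecd RNAi and 4.22 ± 0.15 in control (SD, n = 4 each). The pair for methionine stood at 8.70 ± 0.83 with ecd plus Xrp1 RNAi, 6.35 ± 0.87 with ecd RNAi and 8.95 ± 0.80 in control, and its ecd RNAi libraries also lay below all others. The pair for alanine went the other way, at 15.0 ± 1.38 with ecd plus Xrp1 RNAi, 16.4 ± 1.84 with ecd RNAi and 13.5 ± 0.89 in control. Pairs share genes and libraries, and their counts carry no test.

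**Figure D3:**
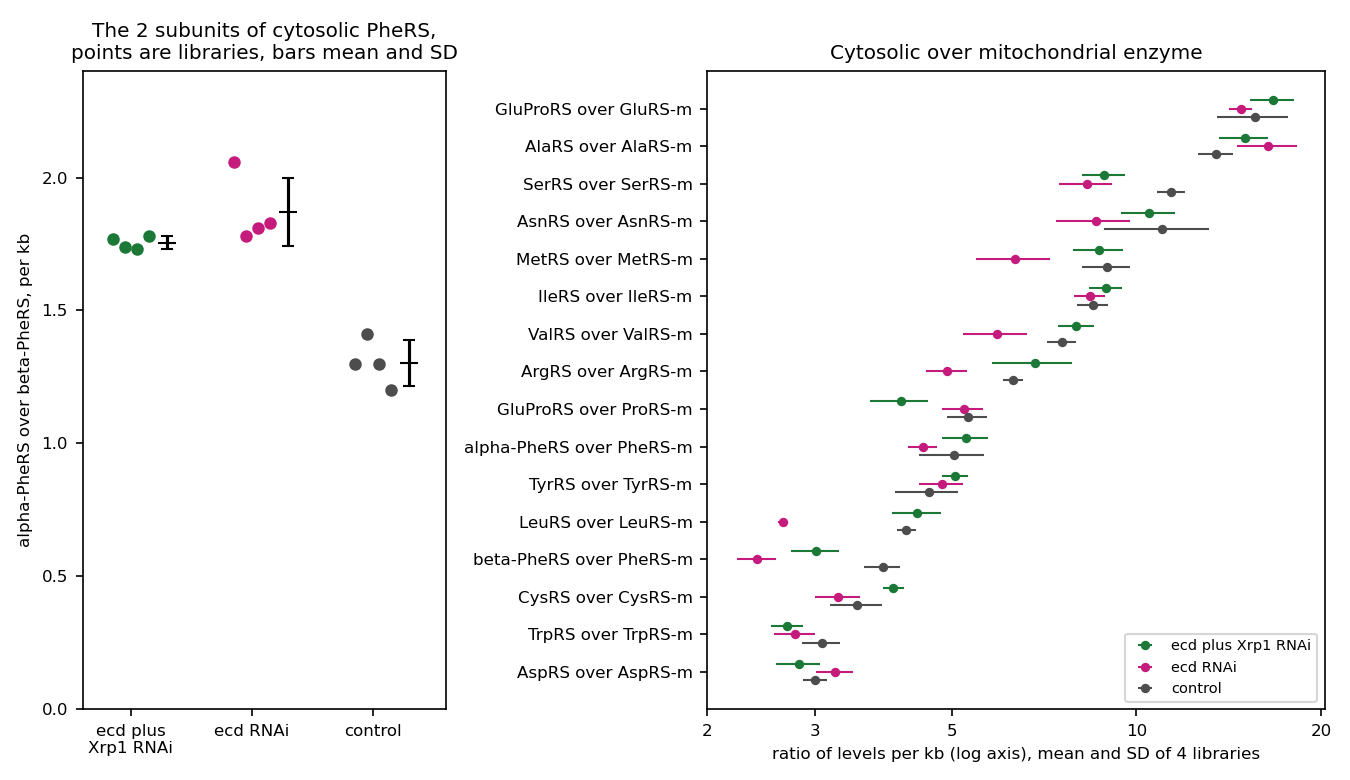
Left, the ratio of alpha-PheRS to beta-PheRS per kb in each library by group, from 1.73 to 1.78 with ecd plus Xrp1 RNAi, 1.78 to 2.06 with ecd RNAi and 1.20 to 1.41 in control, with mean and SD. Right, the ratio of the cytosolic to the mitochondrial gene per kb for 16 pairs on a log axis, as mean with SD of 4 libraries, where the ecd RNAi point of the leucine pair lies at 2.66.

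Of the amino acids without an -m gene among the members, 5 have a cytosolic member, namely GlnRS, GlyRS, HisRS, LysRS and ThrRS. None of these 5 was called in the 3 comparisons. The same held for 9 cytosolic members in all, among them also AspRS, GluProRS, TrpRS and TyrRS, and for 11 of the 15 mitochondrial members. With ecd RNAi against control 22.4% of all tested genes were called higher and 25.4% lower. With ecd plus Xrp1 RNAi these shares were 26.7% and 20.6% over ecd RNAi, and 2.29% and 2.1% against control. How many of all tested genes were called in none of the 3 was not counted. In alternatives GlnRS and LysRS were called under quantile normalization, HisRS when scaled without ribosomal RNA, and GlyRS in several. The annotation of these 5 differs from that of the rest, and a link to the calls was not tested. In the Ensembl annotation of BDGP6, 4 of the 5 (GlyRS, HisRS, LysRS and ThrRS) have coding transcripts with more than 1 start codon, against 1 of the other 15 cytosolic members (GluProRS) and 1 of the 15 mitochondrial members (AspRS-m). The proteins from the different start codons differ by 86 residues in GlyRS, 33 in LysRS and 57 in ThrRS. In HisRS one start codon gives proteins of 522 and 564 residues and the other one of 554. In flies and other animals one GlyRS gene is known to give both a mitochondrial form, with a targeting sequence at its start, and a shorter cytosolic form. GlnRS has no such choice, and in mitochondria glutamine tRNA is instead charged with glutamate and amidated by the GatA, GatB and GatC proteins. GatA, GatB and GatC were not called in any of the 3 comparisons.

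GlyRS (FBgn0027088, chromosome 3L, 15095142 to 15097686, plus strand) had 5742, 5484, 5308 and 5687 normalized counts with ecd plus Xrp1 RNAi, 5318, 5423, 4437 and 4559 with ecd RNAi, and 5915, 5654, 4987 and 5058 in control. The 3 groups overlapped. Its first intron did differ in the authors' deposited table of intron retention, which gives for each intron the mean ratio of retained to all transcripts per group, from 0 to 1. The long form of that intron (3L, 15095186 to 15095273, 88 bases) had a mean ratio of 0.359 with ecd plus Xrp1 RNAi, 0.432 with ecd RNAi and 0.103 in control. The short form (3L, 15095186 to 15095254, 69 bases), which shares its start and so most of its reads, had 0.340 with ecd plus Xrp1 RNAi, 0.418 with ecd RNAi and 0.0947 in control. Both RNAi groups stood at least at 3 times the control mean, and in that table the adjusted p was 2.36e-07 and 3.1e-07 with ecd plus Xrp1 RNAi against control and 2.92e-11 and 2.34e-11 with ecd RNAi against control. The RNAi groups were not called against each other (adjusted p = 0.928 and 0.899 in the authors' deposited table).

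The position of this intron bears on which GlyRS protein a transcript can give. The upstream start codon, at 15095262, lies inside the long form, and the downstream one at 15095520 lies beyond it. By the annotation a transcript spliced at the long form therefore encodes the protein of 679 residues, while one spliced at the short form, or unspliced there, encodes that of 765 residues. The unspliced form is itself an annotated transcript, so that retention cannot be told apart from a larger share of that transcript. Ratios per library were not used, and the spread behind these means is not known here.

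The second such intron is in LeuRS-m. Its intron 1 (3L, 4826043 to 4826094, between coding exons) had a mean ratio of 0.344 with ecd plus Xrp1 RNAi, 0.306 with ecd RNAi and 0.119 in control, with an adjusted p of 0.0314 with ecd plus Xrp1 RNAi and 0.0901 with ecd RNAi in the authors' deposited table. LeuRS-m thus had both a higher level with ecd RNAi and higher mean retention in both RNAi groups. The authors' table held 85 introns of 25 members, and the 3 just described were its only calls among them. It marks all 3, like most of the 85, as near an antisense feature, whose part in the ratios was not tested. Over all 17817 introns, 1.26% were called with ecd plus Xrp1 RNAi against control, 2.32% with ecd RNAi against control and 0.208% with ecd plus Xrp1 RNAi over ecd RNAi.

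With ecd RNAi the mean ratio was higher than in control in 30 of 39 introns of cytosolic members and in 30 of 46 of mitochondrial members (76.9% and 65.2%), beside 64.0% of all introns. With ecd plus Xrp1 RNAi these counts were 29 of 39 and 21 of 46, beside 61.2% of all introns. IleRS had the highest ratios in its first intron, of 54 or 79 bases in the 5' UTR, with 0.585 and 0.6 with ecd plus Xrp1 RNAi, 0.579 and 0.597 with ecd RNAi, and 0.449 and 0.468 in control, none of them called. An annotated IleRS transcript has an exon over each form, so retention there cannot be told apart from a larger share of such a transcript. In beta-PheRS, whose transcript fell most, none of 4 introns was called. Intron 1 had a mean ratio of 0.0452 with ecd plus Xrp1 RNAi, 0.0964 with ecd RNAi and 0.06 in control, and intron 2 had 0.0835 with ecd plus Xrp1 RNAi, 0.120 with ecd RNAi and 0.0560 in control. Intron 3 had 0.150 with ecd plus Xrp1 RNAi, 0.117 with ecd RNAi and 0.107 in control, and intron 4 had 0.0496 with ecd plus Xrp1 RNAi, 0.0812 with ecd RNAi and 0.0641 in control. All 4 means were higher with ecd RNAi than in control, and 2 of the 4 were with ecd plus Xrp1 RNAi.

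**Figure D4:**
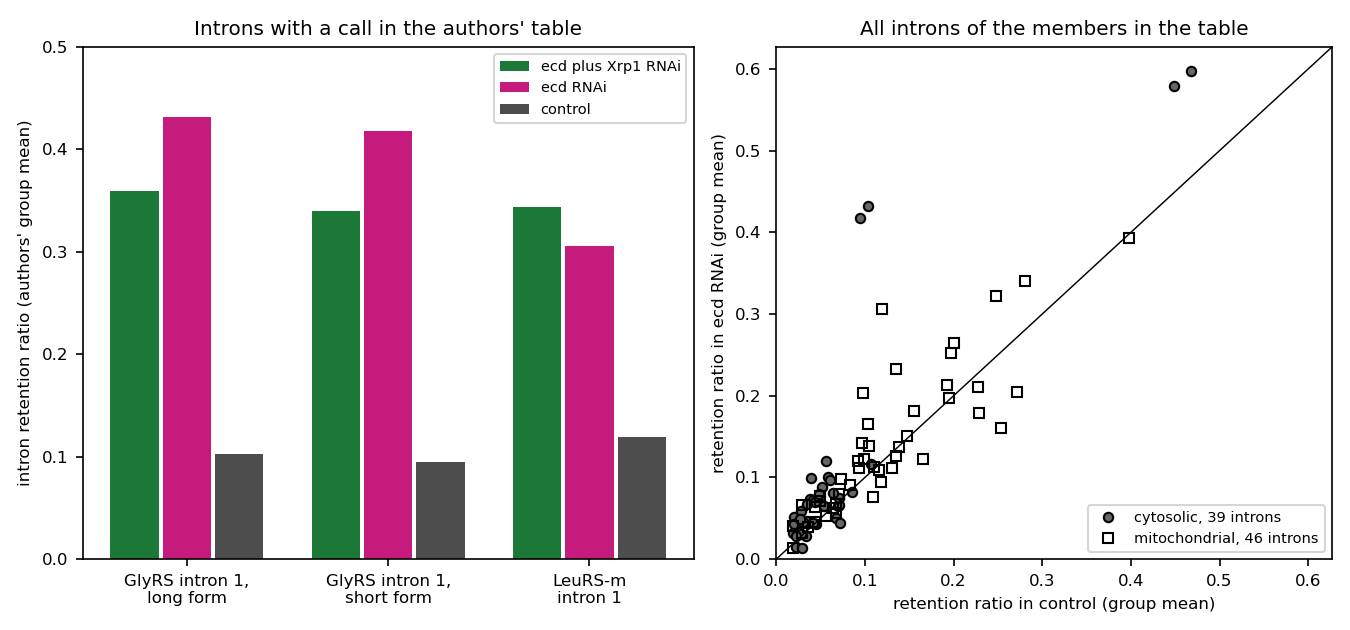
Left, the authors' mean retention ratio per group for the 3 introns of members with a call in their table, as bars from 0 with no error, where the long form of GlyRS intron 1 stands at 0.359 with ecd plus Xrp1 RNAi, 0.432 with ecd RNAi and 0.103 in control. Right, the mean ratio with ecd RNAi (vertical) against control (horizontal) for 39 introns of cytosolic and 46 of mitochondrial members, with the line of equal ratios.

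Other genes of tRNA charging and its regulation were taken from a list of 45 symbols, of which 43 were found in the table. With ecd RNAi against control 7 of them rose and 17 fell, where 22.4% of all tested genes were called higher and 25.4% lower. In the comparison of ecd plus Xrp1 RNAi over ecd RNAi 14 rose and 8 fell, where 26.7% of all tested genes were called higher and 20.6% lower, so those shares are near the background. With ecd plus Xrp1 RNAi against control Gs1, a glutamine synthetase, fell (-0.89 ± 0.22, adjusted p = 0.0447) and 0 rose, against 2 higher and 3 lower at an unadjusted p under 0.05 in limma. The largest changes were those of aay, Thor, CG6287, Atf3 and mnd, and the other genes of the list named below were chosen after their values were seen. The median changes were -0.17, 0.11 and -0.04, beside -0.04, -0.01 and 0.00 over all tested genes. The first pair of comparisons shares the ecd RNAi libraries.

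Of the 3 scaffold proteins of the multisynthetase complex, AIMP2 fell by 0.47 ± 0.07 and AIMP1 by 0.22 ± 0.08 on the log2 scale with ecd RNAi (adjusted p = 9.33e-05 and 0.034), and AIMP3 was not called (-0.13 ± 0.11, adjusted p = 0.324). AIMP2 had 1508, 1514, 1252 and 1351 normalized counts with ecd RNAi, against 2057, 2025, 1897 and 1794 in control. With ecd plus Xrp1 RNAi over ecd RNAi, AIMP2 rose by 0.43 ± 0.07 and AIMP1 by 0.21 ± 0.08. Of 5 genes for the elongation factor eEF1, which carries charged tRNA to the ribosome, eEF1delta fell with ecd RNAi, by 0.70 ± 0.11 (adjusted p = 0.000221), and the other 4 were not called.

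Genes of the ATF4 branch went in both directions. With ecd RNAi Thor, the translation inhibitor 4E-BP, rose by 3.43 ± 0.42, the bZIP factor gene Atf3 by 2.41 ± 0.18, crc, the ATF4 gene, by 0.70 ± 0.07, Gcn2 by 0.52 ± 0.07 and PEK, the kinase of the endoplasmic reticulum that also targets eIF2alpha, by 0.51 ± 0.07 (adjusted p of at most 4.08e-05). Thor had few counts, at 123.9, 128.5, 173.7 and 111.1 with ecd RNAi, against 4.3, 11.49, 18.21 and 17.65 in control. crc had 33430, 29840, 27400 and 28240 normalized counts with ecd RNAi, against 19090, 18810, 17180 and 18110 in control, with no overlap. The eIF2 subunits eIF2alpha and eIF2gamma fell, by 0.30 ± 0.09 and 0.33 ± 0.08. With ecd plus Xrp1 RNAi over ecd RNAi Thor changed by -2.59, Atf3 by -1.79, crc by -0.64, Gcn2 by -0.45 and PEK by -0.43, with adjusted p of at most 0.000243, and eIF2gamma rose by 0.35.

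Of 12 genes listed for amino acid synthesis and related steps, such as Nmdmc, 7 fell with ecd RNAi and 0 rose (1 at an unadjusted p under 0.05 in limma), where 25.4% of all tested genes were called lower and 22.4% higher. The median change of the 12 was -0.30, with Got1 at -0.18 and Shmt at -0.27 among the smaller falls. CG6287, which by its similarity to other animals encodes the first enzyme of serine synthesis, had 729, 579, 326 and 896 normalized counts with ecd RNAi, against 4013, 4326, 4155 and 3519 in control. It fell by 2.75 ± 0.23 (adjusted p = 8.93e-07), and the other enzymes of that route, CG11899 and aay, fell too, with changes of -1.43 ± 0.17 and -4.31 ± 0.68. Of these aay had few counts, at 2.222, 0, 0 and 6.905 with ecd RNAi, against 43.87, 41.1, 95.98 and 20.58 in control. SerRS, which uses serine, fell by 0.33 in the same comparison, where the cytosolic members called lower changed by -0.82 to -0.17. A link between SerRS and these genes was not tested. AsnS, which makes asparagine, was not called with ecd RNAi (-0.03 ± 0.22, adjusted p = 0.918) and rose by 0.79 ± 0.22 with ecd plus Xrp1 RNAi over ecd RNAi (adjusted p = 0.011). It had 656.4, 586, 546.5 and 606.7 normalized counts with ecd plus Xrp1 RNAi, against 372.7, 603, 241 and 264.6 with ecd RNAi. These groups thus overlapped. Of 5 amino acid transporters mnd fell by 2.12 ± 0.18 and path by 0.81 ± 0.23 with ecd RNAi. Both rose with ecd plus Xrp1 RNAi over ecd RNAi, by 1.98 ± 0.18 and 0.91 ± 0.23, and neither was called against control.

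**Figure D5:**
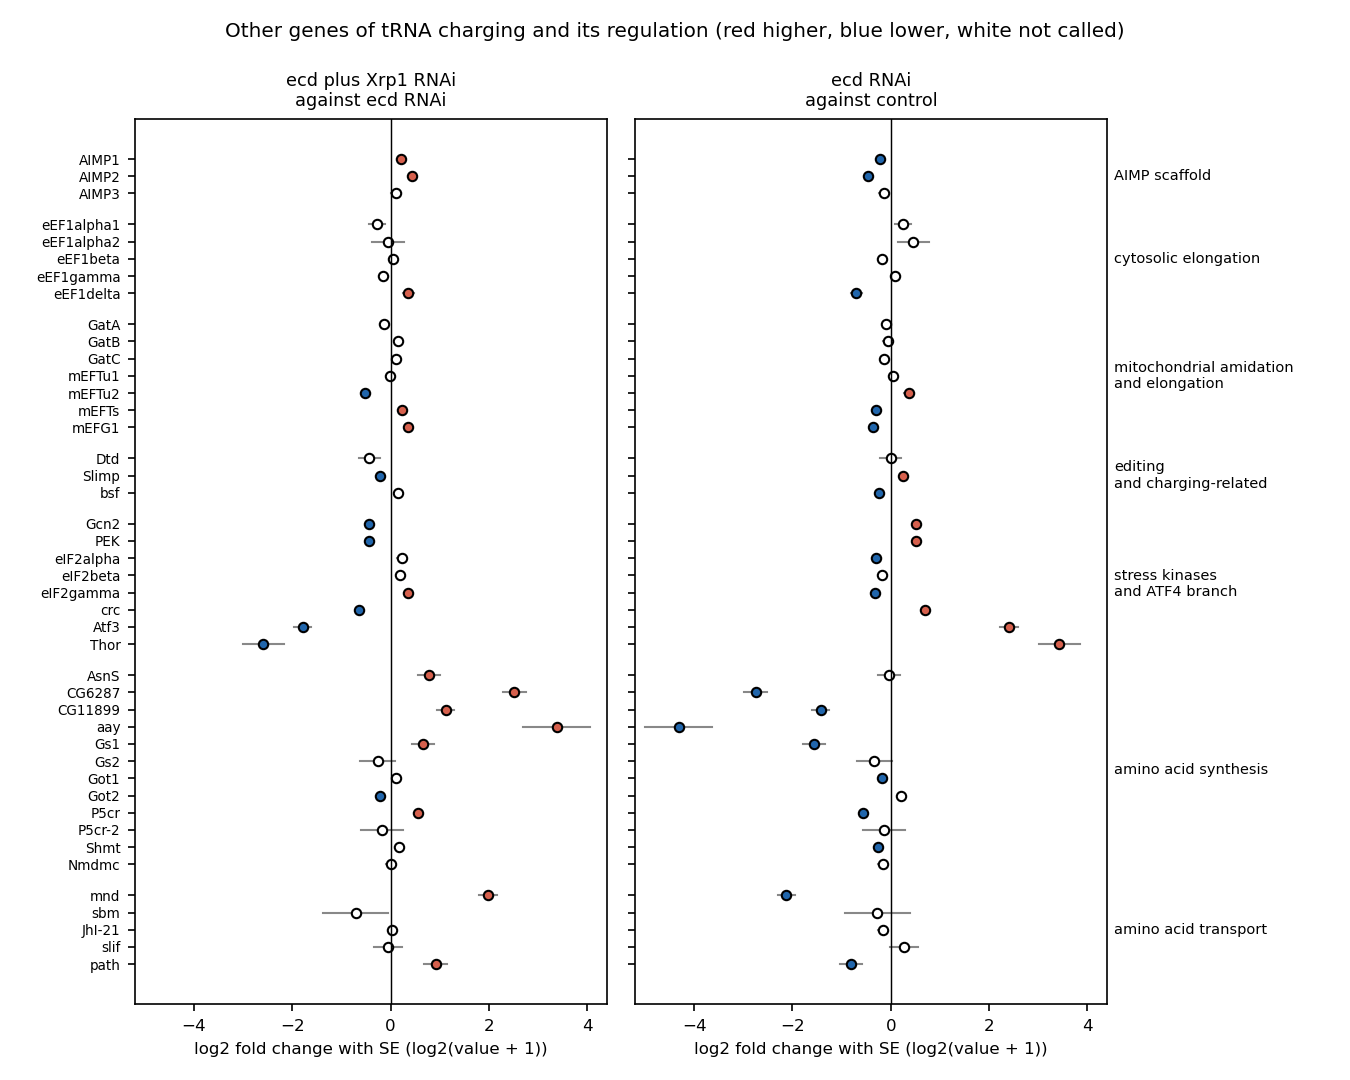
Log2 fold change with SE of the 43 other genes of charging and its regulation, with ecd plus Xrp1 RNAi over ecd RNAi on the left and ecd RNAi against control on the right, horizontal axes in log2 units. Filled points passed an adjusted p of 0.05, red higher and blue lower, and the panels share the ecd RNAi libraries. CG6287 lies at 2.52 on the left and -2.75 on the right.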

How the data were processed

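Ribosome-depleted total RNA was made into libraries with a strand-keeping kit, per the labels' protocols. Per the submitters' processing notes, the authors used kallisto 0.46.1, cutadapt 3.5, DESeq2 1.34.0, FastQC and build BDGP6, listed without roles. No source used here says whether the counts took account of strand. The values used are the normalized signal per gene (DESeq2-normalized counts, per the file headers), put on 1 scale for 12 libraries by the authors. The authors' deposited table of comparisons gives log2 fold changes, p-values and adjusted p, with standard errors and test statistics (unit score). Their intron table gives retention ratios as a fraction, with the mean of each group made by the authors and a log2 fold change whose sign runs opposite to the one used here. No source used here names the tool behind the ratios, and 12 columns of ratios per library were not used.

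Here log2(value + 1) of each gene whose mean over the libraries reached 10 was fitted by limma 3.58.1 (R 4.3.3, moderated variances with a trend on the mean), on all 12 libraries with no covariate, two-sided, with Benjamini-Hochberg adjustment over 10179 genes. The procedure was tested on simulated data. Values below 12 in a library were whole multiples of 1 step for 57.0% to 80.5% of genes (tolerance 0.03 of a step), so read counts were not recovered and no count model was run. Tables used pandas 2.3.3 and Python 3.11.15, exact permutation tests scipy 1.17.1.

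Members, gene lists and markers were chosen with earlier results of these data known, and the roles of members were written after their values were seen. Values per library are given for the 4 members of each class with the largest called change in each comparison, the member with the highest level per kb in each class, GluProRS and the PheRS subunits, and cytosolic members without an -m gene where a result turns on them. Of the list of other genes, the 4 with the largest called changes in a comparison were to be named.

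Replicate numbers come from the sample titles, and the sample descriptions number the libraries otherwise. There replicate 1 of ecd RNAi and replicate 1 of control carry different numbers, while the later replicates of these groups match. Deviations of same-numbered libraries from their group means correlated at 0.533, 0.412, 0.559 and 0.235 between ecd RNAi and control, so by the rule that every such correlation be over 0.1 those numbers were taken to pair the libraries, although only ecd RNAi replicates 1 and 3 correlated best with the control of their own number. The fat-body-rich libraries have the same replicate numbers in both groups, and their part in these correlations was not tested. The fit with the replicate number as a block was an alternative. Other alternatives were other pseudocounts, filters, scalings, weights, only the 2 groups compared, and leaving out each library. Exons of other genes lie over 5 of the 20 cytosolic and 10 of the 15 mitochondrial members, and where these are on the other strand their reads cannot be told apart here. Protein and promoter sequences were not analysed here.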

Additional observations from a re-analysis of the deposited data

Results flagged for a closer look

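In 105 groups of 4 libraries (35 members in 3 groups), 3 held 1 library far from the others, by a gap to its nearest neighbour above Dixon's critical value at 95%. Chance flags about 1 in 20 groups. LeuRS in ecd plus Xrp1 RNAi replicate 3 had 3525 normalized counts, where the other libraries of that group had 3989 to 4037. CysRS in the same library had 1973, where the others had 2004 to 2010, a gap that is small beside its level. PheRS-m in control replicate 2 had 386.0, where the others had 421.4 to 425.2.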

How the results depend on the processing

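Counts of called members moved by more than 1.5 times under these settings. With ecd RNAi against control, 1 cytosolic member was higher, and 4 were under quantile normalization and 2 each under array weights, the replicate block and without the fat-body-rich libraries. The 8 lower became 13 when scaled without ribosomal RNA. Of mitochondrial members 2 were higher and 3 lower under quantile normalization, and 1 lower when scaled without ribosomal RNA. With ecd plus Xrp1 RNAi over ecd RNAi, the 0 cytosolic members lower became 5 under quantile normalization, 2 under array weights and without the fat-body-rich libraries, and 1 under the replicate block (AlaRS, -0.18, adjusted p = 0.0121). The 1 mitochondrial member higher became 0 with no filter, array weights or without those libraries, 4 under quantile normalization, 3 when scaled without ribosomal RNA and 2 under the block. The 3 lower became 1 under quantile normalization, scaling without ribosomal RNA, only the 2 groups, the block, and without those libraries. GluRS-m turned to 0.079 under quantile normalization. With ecd plus Xrp1 RNAi against control, the 1 cytosolic member higher became 2 under array weights and the block and 0 with no trend and without the fat-body-rich libraries. The 1 mitochondrial member higher became 0 with no filter and without those libraries, 2 with a mean of at least 50, size factors computed again and the block, and 3 under quantile normalization, array weights and only the 2 groups. Shares of all tested genes called moved with the setting as well. Over all settings they ran from 15.9% to 25.3% higher and 16.2% to 31.2% lower with ecd RNAi against control. With ecd plus Xrp1 RNAi they ran from 16.5% to 32.7% higher and 14.3% to 23.8% lower over ecd RNAi. Against control they ran from 1.19% to 7.54% higher and 1.03% to 7.05% lower. The cause of these moves was not tested.

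Leaving out each library gave, for ecd RNAi against control, 1 to 2 cytosolic members higher, 7 to 8 lower, and 1 mitochondrial member higher with 0 to 1 lower. For ecd plus Xrp1 RNAi over ecd RNAi it gave 9 to 11 cytosolic higher and 0 lower, 0 to 2 mitochondrial higher and 1 to 3 lower. For ecd plus Xrp1 RNAi against control it gave 0 to 1 cytosolic higher, 1 lower, and 0 to 3 mitochondrial higher with 0 lower. Over all genes, ecd plus Xrp1 RNAi against control had 233 higher and 214 lower, but 768 and 718 under array weights, 358 and 379 under quantile normalization, and 207 and 372 scaled without ribosomal RNA. AlaRS, ArgRS, AsnRS, MetRS, SerRS, ValRS, both PheRS subunits and LeuRS-m kept their direction and call with ecd RNAi against control in all 26 alternatives. Replicate numbers of the titles did not pair ecd plus Xrp1 RNAi with the other groups (correlations of -0.131 to -0.347). Pairing by the numbers of the sample descriptions, which differ for most of these libraries, was not examined. For this group the block gives the counts above. It also calls GlyRS, MetRS and SerRS-m higher over ecd RNAi and AlaRS and SerRS-m higher against control. The log2 difference of 0.52 in the ratio of the PheRS subunits, ecd RNAi against control, had p = 0.125 in the exact permutation test within replicate pairs, too few to pass. Beside the calls of AspRS and GlyRS given with the results, the block changed no call of a member with ecd RNAi against control. Read depth is not known, so no counting error can be given for any member.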
